A study of Mus musculus with 50 samples.

Results

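Gapdh and 5 of its listed copies were followed through liver RNA sequencing of a mouse backcross. The members were chosen from the normalized expression table, with their values already known: Gapdh on chromosome 6 and Gm13394, Gm2546, Gm5559, Gm7336 and Gm3839 on other chromosomes, 6 of the 12185 genes listed. Their levels, their spread and the sorting of libraries they show are therefore given as descriptions, with no test.

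The animals were male offspring of a cross between B6.A4 and B6.A6, the chromosome substitution strains that carry chromosome 4 or chromosome 6 of strain A/J on a C57BL/6J (B6) background, with a backcross to B6. Each mouse thus had B6 alleles throughout, except where its 1 recombinant homolog of chromosome 4 and its 1 recombinant homolog of chromosome 6 carried A/J sequence. The labels call the animals adult F2 mice, and the study describes N2 mice of 5 weeks that were fasted overnight before the caudate lobe of the liver was taken. No treatment or genotype class divides the 50 libraries, which form 1 group with 48 distinct animal numbers, since 2 animal numbers stand on 2 libraries each.

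Values are normalized CPM, reads scaled by 1 factor for each library, and every value was a whole number of reads within 0.01 reads. The values of a library summed to between 886171 and 1120647. Counted reads ran from 11965594 to 29976557 per library with a median of 13620584, so that 1 read was worth 0.0317 to 0.0864 normalized CPM and 3 reads 0.0951 to 0.259. The 6 hepatocyte markers fixed for the check of tissue, among them albumin and transthyretin, were all listed and summed to 78931 to 125926 normalized CPM, while none of 4 skeletal muscle markers was listed. The library numbered 24 stood apart: it held 193 normalized CPM of the cytochrome P450 gene Cyp2b9 and 16.8 of its relative Cyp2b13, against at most 56.2 and 0.540 in the remaining 49 libraries. Its 4 listed Y-linked genes lay within the range of the other libraries.

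Glyceraldehyde-3-phosphate dehydrogenase, the product of Gapdh, carries out the step of glycolysis that oxidizes glyceraldehyde 3-phosphate, and runs in reverse when the liver makes glucose. It is abundant in nearly all cells and is widely used as a reference gene. Its mRNA has been reverse transcribed and inserted into the mouse genome many times, which leaves processed pseudogenes: copies without introns and, usually, without a promoter of their own. Short reads from such a copy and from the parent gene are hard to tell apart wherever their sequences are the same.

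The Gapdh gene lies on the minus strand at chr6:125161715-125166467 (GRCm38, GENCODE M21 annotation), and the transcript used here has 7 exons and a coding part of 1002 bases for 333 residues. In the same annotation 364 genes aligned to at least 50% of that coding part, and 11 of them were listed in the table. Gm13394, a processed pseudogene at chr2:28933610-28934609 on the minus strand, lies inside Cfap77, which is on the same strand and is not listed. Over its 1000 bases it differed from Gapdh by 1 substitution, A346C, with positions counted from 1 at the first base of the start codon. That base lies in exon 4 of Gapdh at position 125163016 of chromosome 6, and the change is synonymous (R116R). Gm5559 (chr5:95861714-95862715, plus strand) also had 1 substitution, T385A, which changes the residue (F129I). The stretch that holds both sites is shown because it holds the only substitution of each of these copies. It covers coding bases 316 to 415, 5′ to 3′, from the annotated GRCm38 transcripts. Gm12070, a further listed copy (chr11:26786633-26787634) with 1 substitution (G361A), is included for comparison. In the line of Gapdh the capitals mark the 3 sites, and in the other lines the base that differs from Gapdh.
Gapdh: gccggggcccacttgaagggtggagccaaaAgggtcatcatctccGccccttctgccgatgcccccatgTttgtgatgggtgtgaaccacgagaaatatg
Gm13394: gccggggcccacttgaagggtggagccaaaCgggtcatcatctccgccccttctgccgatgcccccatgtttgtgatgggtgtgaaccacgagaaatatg
Gm12070: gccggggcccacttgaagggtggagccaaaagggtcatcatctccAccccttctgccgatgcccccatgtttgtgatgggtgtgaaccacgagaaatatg
Gm5559: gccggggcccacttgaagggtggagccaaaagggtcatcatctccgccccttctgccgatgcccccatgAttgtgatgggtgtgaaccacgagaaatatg

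The other copies were further from the parent or longer. Gm7336 (chr7:51746647-51747878, plus strand) matched the Gapdh coding part exactly and had 2 gap bases outside it over 1200 aligned columns. Gm2546 (chr7:89607706-89608696, plus strand) had 10 substitutions and 97.9% identity. Gm3839 (chr14:11280735-11356726, minus strand), which the annotation calls protein coding and gives a span far longer than its transcript of 1712 bases, had 99.2% identity with 7 substitutions in the coding part. How much of each sequence is its own was counted in windows of 31 bases. None of the 972 windows of the Gapdh coding part was absent from the other annotated genes, and of all 1242 windows of the transcript 98 were in no other gene. Of these 98, 74 began before the start codon and 24 after the stop codon. Gm13394 had 24 windows of its own out of 970, Gm5559 31 of 972 and Gm2546 83 of 961, whereas Gm7336 had 0 of 1202 and Gm3839 594 of 1682. The base C of A346C was also found in 9 of the 352 other copies aligned there, none of them listed. How the counting treated reads that align equally well to several genes is not given in the sources used here. The value of each copy is uncertain for that reason and may hold reads from Gapdh RNA, as Gapdh may lack some of its own.

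Gapdh itself was measured at 568 ± 110 normalized CPM (SD, n = 50), which ranked 167 of the 12185 genes. The lowest library held 393, the median was 553 and the highest 793, from 5090 to 24899 reads, and sampling of reads accounted for 0.317% of the variance. Its coefficient of variation (CV) was 19.4%. Among the 200 genes closest to it in level, 74% had a smaller CV and the median CV was 14.2%. The widest break between neighbouring values took up 12.7% of the range on a log2 scale.

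Gm13394 did not vary in that way. In 32 libraries it held 84.4 to 163 normalized CPM (median 113.5, 1094 to 3107 reads), in 17 libraries 0.160 to 1.05 (median 0.616, 2 to 25 reads), and in the library numbered 24 it held 7.94. These ranges lay far apart, with that library alone between them. On the log2(value + 0.5) scale the gap between 7.94 and 84.4 took up 41.9% of the whole range. Among the 11436 genes with a mean of at least 1, 7 genes (0.0612%), Gm13394 included, had a gap as large with at least 10 libraries on each side. None of the other copies was among them. Over all 50 libraries Gm13394 averaged 73.1 ± 56.3 (SD, n = 50) with a CV of 77.1%.

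**Figure D1:**
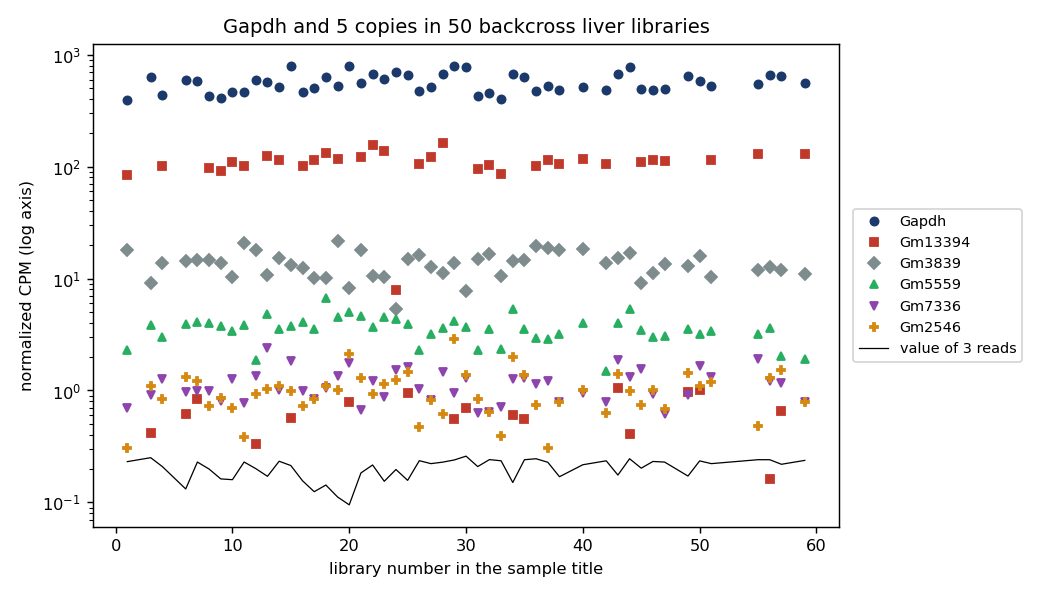
Normalized CPM (log axis) of Gapdh and its 5 copies in each of the 50 libraries, by the library number in the sample title; the black line joins the value of 3 reads in each library. Gm13394 (red squares) sits either at 84.4 to 163 or at 0.160 to 1.05, with the library numbered 24 at 7.94, while Gapdh (blue circles) stays between 393 and 793.

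Within a library the level of Gm13394 was a nearly fixed part of that of Gapdh wherever it was high. The ratio of Gm13394 to Gapdh in reads, which does not depend on the scaling between libraries, ran from 21.1% to 24.5% in the 32 libraries with a median of 22.3%. Its CV there was 3.49%, against 2.74% from counting error alone. Over the same 32 libraries the rank correlation of the 2 genes was 0.96 (Spearman's rho, a description over libraries that share sequence between the genes). Over all 50 libraries rho was -0.33, which mixes the split of Gm13394 into separate ranges with its course within them. Gapdh ran from 393 to 668 normalized CPM in the 32 libraries and from 578 to 793 in the 17 low ones, so that the libraries of highest Gapdh were low in Gm13394 and those of lowest Gapdh were high, with an overlap between 578 and 668. In the 17 libraries with 25 reads or fewer the ratio was 0.0246% to 0.176% and rho was -0.10. The library numbered 24 lay between, with Gm13394 at 1.11% of the reads of both genes (exact 95% binomial interval 0.922% to 1.33%, counting error only). Libraries with the same animal number fell on the same side: the libraries numbered 8 and 10 had ratios of 22.6% and 23.6%, and those numbered 22 and 55 had 23.4% and 23.5%.

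**Figure D2:**
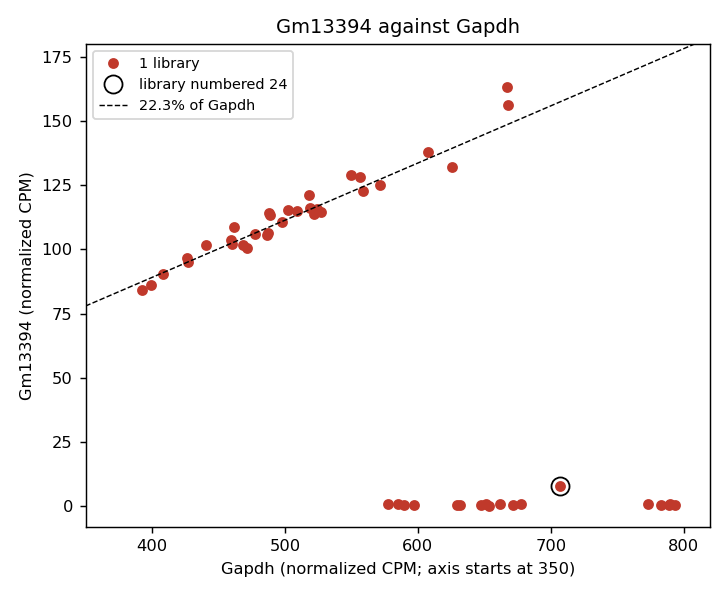
Gm13394 against Gapdh in normalized CPM, 1 point for each of the 50 libraries; the horizontal axis does not start at 0 and the dashed line marks 22.3% of Gapdh. The 32 libraries with high Gm13394 follow the line, the 17 low libraries lie at the bottom, and the library numbered 24 is circled.

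Adding the reads of the copy to those of the parent narrowed the spread. Gapdh and Gm13394 together came to 641 ± 87.7 normalized CPM (SD, n = 50), between 477 and 830 with a median of 634, and their CV was 13.7% against 19.4% for Gapdh alone. The sum of all 6 members had a CV of 13.2%. Among 20 genes often used as references, all listed, Gapdh alone had a higher CV than 16, and the median CV of these genes was 11.9%. Sdha, a subunit of succinate dehydrogenase, varied least of them at 7.19%, followed by the 14-3-3 protein gene Ywhaz at 7.93%. The transferrin receptor gene Tfrc reached 34.7% and the tubulin gene Tuba1a 41.6%. Tuba1a had a mean of only 1.11 normalized CPM, where sampling of reads weighs more than for Sdha (mean 328).

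A pair of genes near Gapdh sorted the libraries in the same way. C1s2 and C1rb, which encode complement C1 proteases and lie within 1 Mb of Gapdh, were the only chromosome 6 genes among the 7 with so large a gap. C1s2 held 4.67 to 9.17 normalized CPM in 32 libraries and 0 to 0.328 in the other 18. C1rb held 5.88 to 13.1 in 32 libraries and 0 to 0.590 in the other 18. The 32 libraries above the gap were the same for all 3 genes, and so were the 18 below it. In the library numbered 24, C1s2 (5 reads) and C1rb (9 reads) had their highest values below the gap.

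Likeness to Gm13394 was then ranked over the table by Spearman's rho across the 50 libraries. The libraries and their genotypes are shared by all genes, so that rho is given without a p. It mixes the split of Gm13394 into separate ranges with the variation of Gm13394 within them. The highest values were those of Gprc5a, an orphan receptor (0.69), C1rb (0.66), Cops7a, a subunit of the COP9 signalosome (0.62), Pik3c2g, a phosphoinositide 3-kinase (0.58), and C1s2 (0.57). Lowest were Mug2, a murinoglobulin secreted by the liver (-0.84), Gm45769 (-0.75) and the apoptosis gene Bid (-0.67). All 8 of these genes lie on chromosome 6, within 25 Mb of Gapdh, although Gm13394 is annotated on chromosome 2. Of the 10 genes with the largest absolute rho 10 lay on chromosome 6, and of the 50 largest 24 did. An absolute rho of at least 0.5 was reached by 12 of 574 genes on chromosome 6 and by 1 of 10856 genes elsewhere. These 12 fell off with distance: 4 of 39 genes lay within 1 Mb of Gapdh, 4 of 51 at 1 to 5 Mb, 2 of 44 at 5 to 10 Mb and 2 of 96 at 10 to 25 Mb, with 0 of 344 genes beyond.

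**Figure D3:**
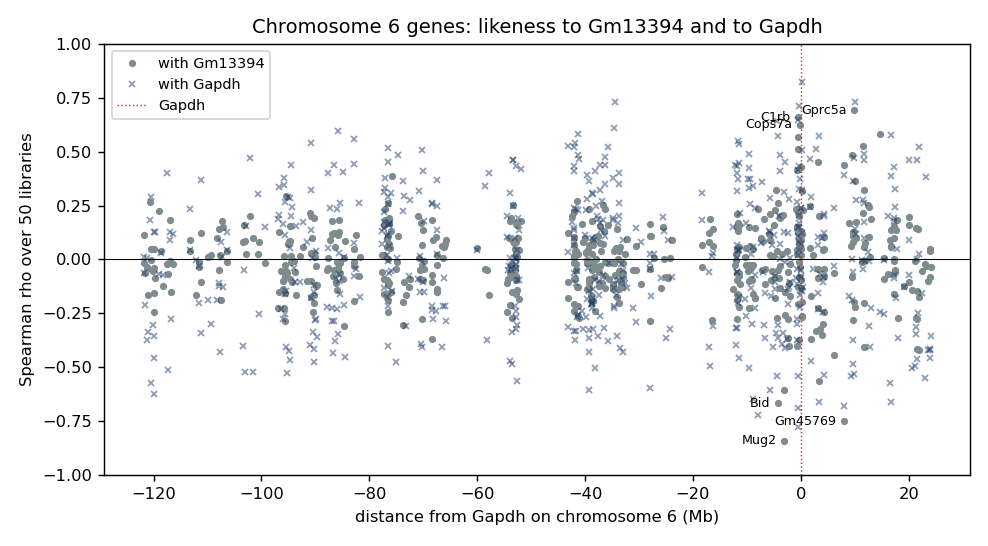
Spearman's rho over 50 libraries of each chromosome 6 gene with Gm13394 (grey circles) and with Gapdh (blue crosses), against the distance from Gapdh in Mb. The genes most like Gm13394 in either direction, from Mug2 at -0.84 to Gprc5a at 0.69, lie within 25 Mb of Gapdh.

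The listed genes nearest the annotated place of Gm13394 on chromosome 2 were looked at as well. Ddx31, an RNA helicase gene 28039 bases away, had a rho of -0.27 with Gm13394. Ttf1, a transcription termination factor gene 125653 bases away, had -0.08. The median absolute rho with Gm13394 was 0.085 over all genes and 0.134 over the genes within 1 Mb of Gapdh. By the design of the cross chromosome 2 carried B6 alleles in every mouse, so that a split by genotype could not appear there. Whether Gm13394 follows its annotated place was therefore not tested by these neighbours. Within 1 Mb of Gapdh, 39 other genes had a mean of at least 1. The 5 with the largest absolute rho with Gm13394 were C1rb, Cops7a, C1s2, Gm18840 (0.51) and Tapbpl (0.43), a gene of antigen processing. The closest neighbours of Gapdh did not share its pattern: rho with Gapdh was -0.05 for Nop2, 0.24 for Ncapd2 and 0.07 for Iffo1, which overlaps Gapdh on the opposite strand. Of the 39 genes within 1 Mb, however, 7 had an absolute rho of at least 0.5 with Gapdh, against 753 of 11430 over all genes.

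The remaining 4 copies showed no such gap. Gm3839 was measured at 13.7 ± 3.54 normalized CPM (SD, n = 50) from 82 to 585 reads, with a median of 13.6 between 5.38 in the library numbered 24 and 21.8. Gm5559 was measured at 3.59 ± 0.975 (19 to 158 reads), with a median of 3.58 between 1.49 and 6.72. For Gm7336 the mean was 1.15 ± 0.388 (8 to 55 reads), and the values ran from 0.612 to 2.40 with a median of 1.04. Gm2546 was the lowest at 1.02 ± 0.469 (4 to 67 reads), from 0.305 to 2.87 with a median of 0.989. The range of Gm7336 lay within that of Gm2546. Sampling of reads accounted for 51.6% of the variance between libraries for Gm7336, 31.4% for Gm2546, 25.6% for Gm5559 and 7.41% for Gm3839, so that library differences are less certain for the low copies. As medians over libraries, the ratio to Gapdh in reads was 2.30% for Gm3839, 0.624% for Gm5559, 0.186% for Gm7336 and 0.176% for Gm2546. Per kilobase of the transcript aligned here the mean levels were 446 for Gapdh (1272 bases), 73.1 for Gm13394, 7.98 for Gm3839, 3.59 for Gm5559, 1.03 for Gm2546 and 0.931 for Gm7336, in normalized CPM. Per kilobase of all annotated Gapdh exons merged (4133 bases) the level of Gapdh was 137.

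Of these copies 3 went up and down with Gapdh over the 50 libraries. Their rho with Gapdh was 0.72 for Gm2546, 0.55 for Gm7336 and 0.50 for Gm5559. Leaving out the pair of libraries farthest from the median of Gapdh gave 0.68, 0.57 and 0.45. Within the 32 libraries of high Gm13394 the values were 0.45, 0.44 and 0.40, and within the 17 low ones 0.43, 0.26 and 0.57, so that the values for Gm2546 and Gm7336 were lower within either set than over all libraries. Gm3839 ran the other way with a rho of -0.26, or -0.46 among the 28 lower-numbered libraries (1 to 30) and -0.01 among the 22 others (31 to 59). It has the most sequence of its own, but Gm2546, next by windows of its own, had the highest rho with Gapdh. The part of own sequence in these values was not tested.

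**Figure D4:**
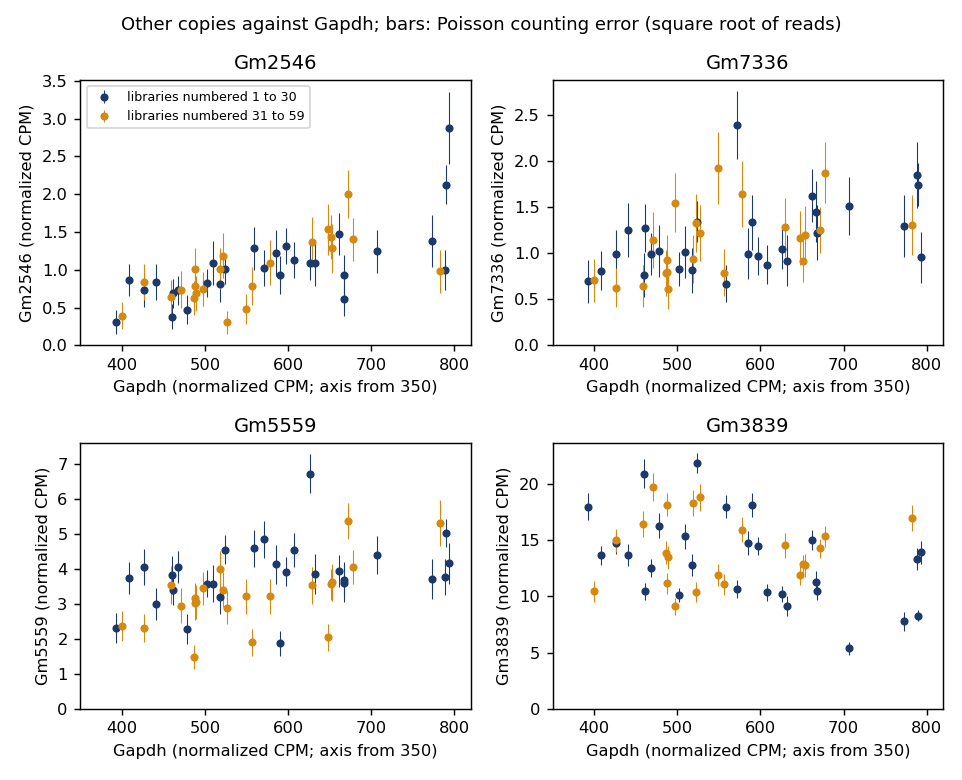
Normalized CPM of Gm2546, Gm7336, Gm5559 and Gm3839 against that of Gapdh in each library, coloured by library number; the horizontal axes do not start at 0 and the bars show Poisson counting error, the square root of the reads. Gm2546, Gm7336 and Gm5559 lie higher where Gapdh is higher (rho 0.72, 0.55 and 0.50), and Gm3839 does not (rho -0.26).

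The genes most like each copy differed. Gm2546 was most like Tnfrsf1a, a receptor for tumor necrosis factor (rho 0.60), Spsb2 (0.59), Mettl1 (0.58), A2ml1 (0.57) and Ddx47 (0.57), and least like C1s2 (-0.71), Gprc5a (-0.66) and Smim10l1 (-0.62), so that 7 of its 8 named genes lay on chromosome 6. The list for Gm5559 was led by ribosomal protein genes, Rpl34 (0.71) and Rps21 (0.70), followed by Atp6v0e (0.69), Minos1 (0.69) and Use1 (0.66), with Qser1 (-0.64), 2610507B11Rik (-0.64) and F8 (-0.64) at the other end. Gm5559 also had a rho of 0.50 with the counted reads of the library, whose part in this was not tested. Among the genes most like Gm7336 were Gstt3 (0.53), Prdx3 (0.53), Anapc10 (0.51) and Dll1 (0.51), and the least like it were Zfp141 (-0.57), Gm16124 (-0.53) and Pot1b (-0.51). Gm3839 was most like the carbonic anhydrase gene Car14 (0.68), Arl6ip1 (0.65), Zranb1 (0.63), the hydrolase gene Aadac (0.62) and the complement gene C8b (0.62), and least like Nt5e (-0.63), Prrc1 (-0.61) and Aen (-0.59).

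Further listed genes aligned to Gapdh as well. Gm12070 averaged 0.984 ± 0.358 normalized CPM (SD, n = 50, 3 to 65 reads) with a rho of 0.58 with Gapdh. Gm12033, whose single substitution is T504C, averaged 0.384 ± 0.223 (0 to 18 reads) with a rho of 0.26. The other 4 share less of the Gapdh sequence, with 92.4% identity or less over the aligned bases: Peli2, a ubiquitin ligase gene, with a mean of 20.1, Gm5345 with 5.87, Gm8941 with 3.30 and Zfp738, a zinc finger gene with the copy on the opposite strand, with 3.85. Their rho with Gapdh was -0.02, -0.22, -0.42 and 0.01. Gapdhs, the gene for the enzyme of sperm, was not listed. Altogether 3 annotated copies, Gm7336 among them, matched the Gapdh coding part exactly and 7 differed by 1 substitution, and 5 of these 10 were listed.

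Among the genes most like Gapdh were Tnfrsf1a, 0.188 Mb away on chromosome 6 (rho 0.82), the glutathione transferase gene Gstt3 (0.78), the malate dehydrogenase gene Mdh1 (0.76) and the sulfotransferase gene Sult1a1 (0.75). Least like it were C1s2 (-0.78), Inhbc (-0.74) and 0610031O16Rik (-0.73). With Gm13394 added to Gapdh the order changed, and among the genes most like the sum were Mdh2, the mitochondrial malate dehydrogenase (0.86, against 0.71 for Gapdh alone), Mdh1 (0.84), the peroxiredoxin gene Prdx3 (0.83) and Cisd3 (0.82). None of these 4 lies on chromosome 6. Least like the sum were Slc22a30 (-0.84), Gm44250 on chromosome 6 (-0.81, against -0.62 for Gapdh alone) and F830016B08Rik (-0.80). Among the 31 listed genes of glycolysis and gluconeogenesis, 26 had a higher rho with the sum than with Gapdh alone, against 5708 of all 11430 genes. Over all genes rho with Gapdh was centred near 0 (median 0.0005), so that these shares are not alike. A rho of at least 0.5 was reached by 7 of the 31 genes with Gapdh and by 10 with the sum. Over all genes 386 and 652 reached it, so that the gain was not particular to the list. Tpi1, which makes the substrate of the enzyme, went from 0.71 to 0.82, Pgk1, which takes up its product, from 0.69 to 0.80, Pgam1 from 0.66 to 0.75 and Eno1 from 0.58 to 0.71. Tpi1 also lies within 1 Mb of Gapdh on chromosome 6, and the part of that position in its rho was not tested. The median over the 31 genes did not rise, at 0.18 for Gapdh and 0.17 for the sum, and Pck1 and G6pc, the enzymes that govern glucose output, were at -0.14 and -0.15 with the sum.

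The labels give 2 numbers for each library, and both were set against the members in fits across all genes. Between the libraries numbered 1 to 30 and those from 31 to 59, 0 of 6 members passed an adjusted p of 0.05 (limma on log2(value + 0.5), Benjamini-Hochberg over 11436 genes), where 13.5% of all genes did. By edgeR 0 passed as well, and by limma 1 had an unadjusted p under 0.05. Gapdh averaged 579 ± 120 normalized CPM (SD, n = 28) in the earlier set against 553 ± 96.4 (SD, n = 22), a log2 change of -0.06 (SE 0.078, adjusted p = 0.678 by limma). Gm5559 came nearest with a log2 change of -0.23 (SE 0.095, adjusted p = 0.0899 by limma, unadjusted p = 0.0175), which was -0.13 with counted reads as a covariate (adjusted p = 0.408 by limma). Over all genes 808 were higher and 734 lower in the later libraries, and 410 and 894 on plain CPM.

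Gapdh rose with the animal number in the sample title. Per 100 numbers its log2 value went up by 0.25 (SE 0.069, adjusted p = 0.0118 by limma), and it was the only 1 of 6 members to pass, where 14.2% of all genes did. The sum of Gapdh and Gm13394, put in the place of Gapdh after the data were seen, rose by 0.24 with a smaller error (SE 0.045, adjusted p = 0.000445 by limma). Gm3839 had a log2 change of -0.25 (SE 0.099, adjusted p = 0.0828 by limma), Gm2546 0.22 (SE 0.11, adjusted p = 0.179), Gm7336 0.18 (SE 0.086, adjusted p = 0.158), Gm5559 0.07 (SE 0.099, adjusted p = 0.708) and Gm13394 -0.02 (SE 0.87, adjusted p = 0.992). At the error of Gm13394 a trend of the size seen for Gapdh was not detectable. What the animal number stands for is not given in the labels.

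Genes of the same pathway moved with it. Of 30 tested genes of glycolysis and gluconeogenesis 12 rose with the animal number and 1 fell, against 7.49% and 6.73% of all genes, and the median log2 change of the 30 was 0.10 per 100 numbers against 0.00 over all genes. Among those with the smallest adjusted p were Slc37a4, the transporter of glucose 6-phosphate, with a log2 change of 0.34 (SE 0.069, adjusted p = 0.00098 by limma), Eno1 (0.30) and Tpi1 (0.22), the neighbour of Gapdh on chromosome 6. Hk3, a hexokinase gene of blood cells, was the one that fell (log2 change -0.33). Between the library sets 1 of these 30 genes was higher and 2 were lower, against 7.07% and 6.42% of all genes. Of the 20 reference genes 2 rose with the animal number, Pgk1 by 0.13 and Gusb by 0.13 on the log2 scale, and 0 fell. Pgk1 is also in the list of glycolysis and gluconeogenesis and is counted in both. All 4 erythroid markers passed as well: Hba-a1 rose by 0.74, Hbb-bs by 0.64 and Hbb-bt by 0.65 while Alas2 fell by 0.30, and the summed level of the 4 ran from 92.1 to 273 normalized CPM. Of 4 stellate cell markers 1 rose, Dcn by 0.34 on the log2 scale (adjusted p = 0.00221 by limma), and their summed level ran from 53.5 to 134 normalized CPM. Of the 6 hepatocyte markers 1 rose, Alb by 0.26 (adjusted p = 0.000262 by limma), and 5 were not called. Of the Kupffer cell, endothelial and cholangiocyte markers, 4 of each, 0 rose and 0 fell. The part of these markers in the change of Gapdh was not tested, and in bulk liver fewer cells of a type and less RNA per cell cannot be told apart. These p-values measure the spread between libraries, of which 2 pairs share an animal number.

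**Figure D5:**
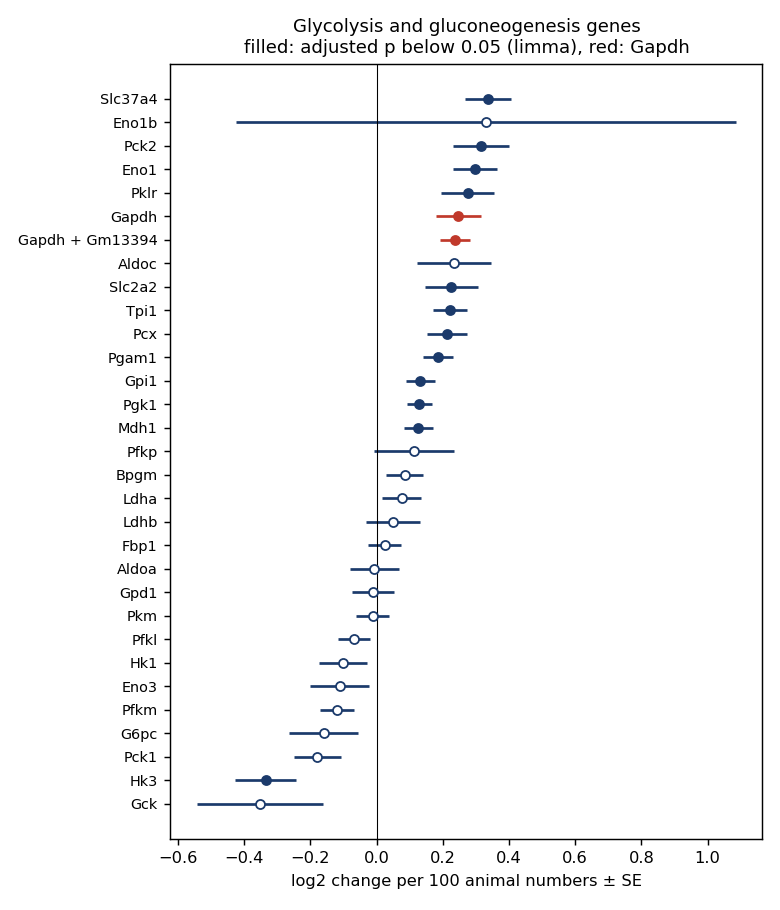
Log2 change per 100 animal numbers with its standard error for 29 of the 30 tested genes of glycolysis and gluconeogenesis (blue) and for Gapdh alone and with Gm13394 added (red); filled circles have an adjusted p below 0.05 (limma). Gapdh at 0.25 and the sum at 0.24 lie among the genes that rose, and the error of the sum is the smaller.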

How the data were processed

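Liver RNA of 50 libraries was sequenced with a stranded mRNA kit. Alignment by the authors used HISAT2 and the GRCm38.p5 build, HTSeq 0.11.1 gave the reads of each gene, and edgeR served to drop genes of low yield and to scale the remainder, per the labels and the study's methods. The deposited values are a signal in normalized CPM, and 100% of them were whole reads within 0.01 (largest deviation 0.000323 reads). From them, levels, ratios and Spearman's rho were computed (Python 3.11.15, scipy 1.17.1), and limma 3.58.1 was fitted to log2(value + 0.5) of the 11436 genes with a mean of at least 1 (two-sided, Benjamini-Hochberg, threshold 0.05). edgeR 4.0.16 was run on the recovered whole reads and made 1647 and 1596 calls for the library sets and the animal number. Both were tested on simulated data. Copies were found with BLAST 2.17.0 on GENCODE M21 transcripts, which place 12173 of the 12185 genes.

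The members and gene lists were chosen with earlier results of these data known. Named genes were the 6 members, other listed genes aligned to at least 50% of the Gapdh coding part, for each member the 5 genes of highest and 3 of lowest rho, the 5 genes within 1 Mb of Gapdh with the largest absolute rho with Gm13394, the nearest listed neighbours, and fixed lists with at most 4 examples by smallest adjusted p. Tpi1, Pgk1, Pgam1, Eno1, Pck1 and G6pc with their rho, the genes with a gap, those that set the library numbered 24 apart, and the genes most and least like the sum were named after their values were seen. Genotypes were not used here, and a few genes that the rule names are not reported here.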

Additional observations from a re-analysis of the deposited data

How the results depend on the processing

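Of 87 alternative values for the results that answer a comparison, 86 stayed within the limit set for their kind. Counts of genes or libraries had a fixed limit in fold change, levels and ratios the SD over libraries, and rho the jackknife error. The SD limit is wide, for Gm13394 56.3 around a mean of 73.1, so that leaving out a few libraries could hardly exceed it. The jackknife error is built from leaving out single libraries, so that leaving out the library numbered 24 could hardly exceed it either. Adding Gm13394 to Gapdh alters 1 gene of the table and could hardly move the gene counts, which stayed at 1542 and 1626. The share within the limit is therefore not a measure of robustness. The alternatives were other pseudocounts, filters, scalings and fits, and the 4 libraries with shared animal numbers left out. Chosen after seeing the data were the library numbered 24 left out and Gm13394 added to Gapdh. The exception was the number of genes that differed between the library sets, 1542, which was 889 with counted reads as a covariate, a fit that takes out what depth shares with the sets. Gapdh passed the threshold with the animal number under each of these, with an adjusted p of at most 0.0189 by limma or edgeR. The lowest, 0.000445 by limma, was that of the sum of Gapdh and Gm13394. Values near 0 changed sign without a call: Gm2546 between library sets was 0.0097 with counted reads as a covariate, and Gm13394 per 100 animal numbers was 0.22 by edgeR and 0.031 without the library numbered 24. Gm2546, Gm5559 and Gm7336 have means under 5 and give no value under the stricter filter. Copies with 4 to 67 reads per library limit what could be detected. No paired analysis was possible because all libraries belong to 1 group.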

Other observations

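Besides Gm13394, C1s2 and C1rb, 4 genes had a gap between libraries at least as large as that of Gm13394. Eno1b, a retained copy of the glycolytic enzyme gene enolase 1, held 19.4 to 42.8 normalized CPM in 21 libraries and 0 to 0.405 in 29. Gm4735 held 11.01 to 19.97 in 21 libraries and 0.0763 to 0.783 in 29, and Gm8483 held 2.07 to 4.34 in 21 libraries and 0 to 0.157 in 29. Nudc-ps1 held 4.55 to 12.4 in 23 libraries and 0 to 0.656 in 27. None of these sorted the libraries as Gm13394 did: 14 of its 32 high libraries were also above the gap of Eno1b, and 11 of its 18 others were also below it. For Nudc-ps1 these counts were 14 and 9. The library numbered 24 lay above the gap of Eno1b, Gm4735 and Gm8483, at 35.6, 17.9 and 4.00 normalized CPM. Below the gap of Nudc-ps1 it held the highest value, 0.656 (10 reads), as it did for Gm13394, C1s2 and C1rb.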
